A study of Mus musculus with 16 samples.

Results

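The genes described are 8 genes of osteoclast formation and cell fusion: Tnfrsf11a, Nfatc1, Oscar, Dcstamp, Ocstamp, Atp6v0d2, Acp5 and Ctsk. They were chosen by name, by matching the gene symbol, and are 8 of the 22287 genes in the table. Their levels were taken from RNA-seq of mouse bone marrow derived macrophages (BMDMs), which are macrophages grown from marrow cells in a dish. Marrow of 8-week-old C57BL/6J mice was cultured for 7 days with either 20 ng/ml GM-CSF (GM cells) or 50 ng/ml M-CSF (M cells). The cells grew on a dish with a tissue culture treated surface (TC) or on an untreated dish (noTC), and then received vehicle or 100 ng/ml LPS, a bacterial cell wall component, for 3 h. This gave 8 groups with 2 libraries each, named by cell and dish (GM-TC for GM cells on a TC dish, and so on), with LPS added to the name for challenged cells (GM-TC-LPS). The labels name no mutation, transgene or RANK ligand in any group, and all groups shared the mouse strain, the age and the length of culture. Per the study's methods, GM cells were seeded at a higher density than M cells. Seeding density and growth factor therefore cannot be told apart in these groups.

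Osteoclasts are large cells with many nuclei that form when macrophage precursors fuse, and they dissolve bone. M-CSF keeps the precursors alive, and RANK ligand acts on the receptor RANK, the product of Tnfrsf11a, to switch on the transcription factor NFATc1, which in turn drives fusion and resorption genes. Dcstamp and Ocstamp encode membrane proteins needed for fusion, and Atp6v0d2 encodes the d2 subunit of the vacuolar proton pump. Acp5 encodes tartrate resistant acid phosphatase, the classical osteoclast stain. Ctsk encodes cathepsin K, which digests bone collagen, and Oscar encodes a costimulatory receptor that signals through an adaptor with an activation motif. Several of these genes are also used by macrophages that fuse into giant cells, and by some macrophages that do not fuse.

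The 16 libraries held between 17527802 and 31458363 counts, and a gene with 3 counts had between 0.0954 and 0.171 CPM (the count scaled to a common library total) at these depths. That floor covers counting error only. All levels are CPM adjusted with edgeR's TMM factors, and of the 8 genes 7 passed the expression filter and were tested. Tests used edgeR's quasi-likelihood fit over 12514 genes, and a gene was called at a Benjamini-Hochberg (BH) adjusted p under 0.05. The labels name 2 biological replicates per group without saying whether they came from separate mice, so the p-values measure the spread between these libraries. The 2 libraries of GM-TC differed most from each other, with a mean chi-square per gene of 12.9 against 1.92 to 5.28 in the other groups. All 7 macrophage markers examined were at 1 CPM or more in every library, which matches the labelled cell type. Of 7 markers of mature osteoclasts outside the 8 genes, 4 were at 1 CPM or more in both libraries of each steady state group and 5 in both libraries of each LPS group. Over the 16 libraries Itgb3 had 6.29 to 24.8 CPM, Car2 0.112 to 39.4 CPM, Tm4sf19 1.16 to 11.5 CPM, Mmp9 1.17 to 9.19 CPM, Slc9b2 0.142 to 5.18 CPM, Calcr 0 to 2.24 CPM and Siglec15 0 to 0.0474 CPM. RNA of heart muscle stood apart in the 4 TC libraries at steady state, where the sum of 9 heart genes was 24.0 to 62.5 CPM against at most 0.872 CPM elsewhere, and its part in any result below was not tested. These libraries are the TC side of each steady state dish comparison and the vehicle side of each LPS comparison on TC. Whatever set them apart cannot be told apart from the dish or LPS there. In bulk RNA, more cells that express a gene and more transcript per cell cannot be told apart.

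The promoters of the genes that moved in opposite directions are shown first. RefSeq's promoter windows (GRCm38.p6) were matched by symbol for Acp5 with 3 windows, and for Ctsk, Oscar and Tnfrsf11a with 1 window each. Windows for Dcstamp, Ocstamp, Atp6v0d2 and Nfatc1 were not used here. Each run below is the 250 bases before the annotated start, 5′ to 3′ on the gene's strand, with capitals marking the NFAT core GGAAA, the AP-1 site TGANTCA, the E-boxes CACGTG and CATGTG and the PU.1 core GAGGAA on either strand. Ctsk and Acp5, higher in GM cells, lie at chr3:95498960-95499209 on the plus strand and chr9:22135747-22135996 on the minus strand (the first of the Acp5 windows). Tnfrsf11a, higher in M cells, lies at chr1:105780473-105780722 on the plus strand.
Ctsk: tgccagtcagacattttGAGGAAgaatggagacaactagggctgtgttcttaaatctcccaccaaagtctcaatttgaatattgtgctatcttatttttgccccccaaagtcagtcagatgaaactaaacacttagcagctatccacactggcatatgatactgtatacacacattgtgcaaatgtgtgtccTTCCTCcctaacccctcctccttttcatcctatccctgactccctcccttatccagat
Acp5: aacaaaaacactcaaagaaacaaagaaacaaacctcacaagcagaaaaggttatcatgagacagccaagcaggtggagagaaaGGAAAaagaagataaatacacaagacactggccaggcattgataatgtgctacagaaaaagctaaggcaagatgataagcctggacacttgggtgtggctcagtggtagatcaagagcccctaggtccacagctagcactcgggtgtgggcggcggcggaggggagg
Tnfrsf11a: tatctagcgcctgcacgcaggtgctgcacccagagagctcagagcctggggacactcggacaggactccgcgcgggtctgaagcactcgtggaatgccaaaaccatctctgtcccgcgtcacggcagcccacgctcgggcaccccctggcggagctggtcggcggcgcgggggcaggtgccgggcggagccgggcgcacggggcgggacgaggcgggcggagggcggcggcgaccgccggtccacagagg

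The Ctsk and Tnfrsf11a windows differed most in base composition. GC content was 43.2% with 0 CG dinucleotides for Ctsk, and 73.6% with 31 for Tnfrsf11a, which put Tnfrsf11a at or above 95.1% of 32851 windows of the same length. The Ctsk window held 2 PU.1 cores, the core bound by a macrophage transcription factor, and the Tnfrsf11a window held no searched motif. The Acp5 window shown has a GC content of 48% and 1 NFAT core, beginning at position -167 from the start. The other Acp5 windows held 1 and 2 NFAT cores, and the window with 2 also held 1 E-box. Oscar's window held 3 NFAT cores, 1 E-box and 1 PU.1 core. Such matches are common: 55.6% of all windows held the NFAT core, 23.3% the PU.1 core, 17.6% an E-box and 6.75% the AP-1 site. A match is a description of letters, and these data do not measure binding.

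The first question was how the 8 genes differ between GM and M cells. The genes of fusion and resorption were higher in GM cells by factors between 6.45 and 45.8 for Dcstamp, Atp6v0d2, Acp5 and Ctsk, the receptor Tnfrsf11a was lower by factors between 3.01 and 7.04, and Nfatc1 changed direction with LPS. In the GM-TC and M-TC comparison 5 tested genes were higher and 2 lower, where 61.5% of all tested genes were called in either direction, 32.6% higher and 28.9% lower. The noTC comparison also gave 5 and 2, against 62.1% of all genes (31.4% higher, 30.7% lower). With LPS 6 genes were higher and 1 lower on each dish, against 66.8% on TC (33.9% and 32.9%) and 66.1% on noTC (33.5% and 32.6%). The libraries of the 2 groups did not overlap for any of the 7 genes in these comparisons, and the same held for 77.7% of all genes on TC, 83.5% on noTC, 82.7% on TC with LPS and 81.9% on noTC with LPS. Because most genes were called, the counts say little about these genes, and the sizes carry the description. Their median log2 fold change was 4.97 on TC, 3.28 on noTC, 4.197 on TC with LPS and 2.82 on noTC with LPS, against 0.02, 0, 0.03 and 0.02 over all tested genes. By log2 fold change in the comparison on TC at steady state Ocstamp took rank 232 of 12514 genes from the highest, Acp5 rank 268, Dcstamp rank 303, Atp6v0d2 rank 334 and Ctsk rank 527, while Tnfrsf11a took rank 608 from the lowest.

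**Figure D1:**
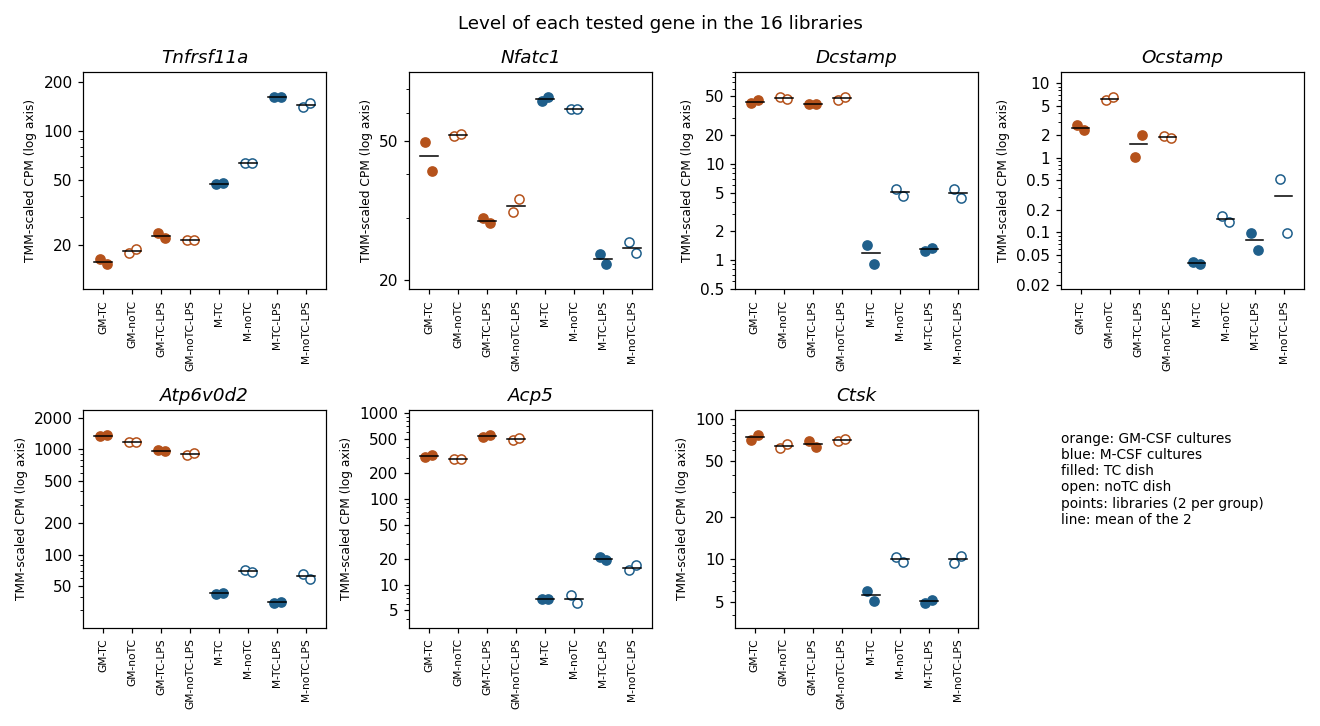
TMM-scaled CPM (log axes, a range of its own in each panel) of the 7 tested genes in the 16 libraries, with the 2 libraries of a group as points and their mean as a line. Dcstamp, Ocstamp, Atp6v0d2, Acp5 and Ctsk are higher in every GM library than in any M library, Tnfrsf11a is lower in every GM library, and Nfatc1 is lowest upon LPS challenge.

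Tnfrsf11a encodes RANK, the receptor at the top of the pathway. At steady state GM cells held 16.5 and 15.3 CPM on TC and 18.0 and 19.0 CPM on noTC, against 47.2 and 48.2 CPM and 64.2 and 63.8 CPM for M cells. Upon LPS challenge GM cells held 23.7 and 22.2 CPM on TC and 21.6 CPM in both noTC libraries, and M cells 161 and 162 CPM on TC and 141 and 149 CPM on noTC. Every M library was above every GM library. The log2 fold change of GM over M was -1.59 (SE 0.07, adjusted p = 5.9e-15) on TC and -1.79 (SE 0.06, adjusted p = 1.8e-16) on noTC. It was -2.82 (SE 0.06, adjusted p = 6.5e-20) and -2.74 (SE 0.06, adjusted p = 1.1e-19) upon LPS challenge.

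Nfatc1, the transcription factor below RANK, did not follow the fusion and resorption genes. Steady state GM cells held 49.4 and 41.0 CPM on TC and 51.4 and 52.2 CPM on noTC, and M cells 64.8 and 66.6 CPM and 61.5 and 61.6 CPM. With LPS, GM cells held 30.04 and 29.0 CPM on TC and 31.2 and 34.0 CPM on noTC, and M cells 23.8 and 22.1 CPM and 25.6 and 23.8 CPM. M cells were thus higher at steady state and GM cells higher with LPS, without overlap on either dish. GM over M was -0.55 on the log2 scale (SE 0.07, adjusted p = 1.1e-06) on TC and -0.25 (SE 0.07, adjusted p = 0.0043) on noTC at steady state. With LPS it was 0.36 (SE 0.09, adjusted p = 0.0011) and 0.40 (SE 0.08, adjusted p = 0.00028). None of these 4 differences reached a fold change of 2.

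Dcstamp, which encodes the fusion protein DC-STAMP, was present in all GM libraries at similar levels. Without LPS these held 42.6 and 45.5 CPM on TC and 48.9 and 47.4 CPM on noTC, and with LPS 41.6 and 41.3 CPM and 46.2 and 49.4 CPM. M cells on TC held 1.44 and 0.898 CPM, or 1.23 and 1.34 CPM with LPS, and M cells on noTC 5.39 and 4.65 CPM, or 5.44 and 4.44 CPM with LPS. The GM level was 37.9-fold higher on TC (log2 5.24, SE 0.13, adjusted p = 4.4e-19) and 9.68-fold higher on noTC (log2 3.28, SE 0.10, adjusted p = 5.4e-18). With LPS the factors were 32.2 on TC (adjusted p = 4.2e-18) and 9.67 on noTC (adjusted p = 5.7e-17).

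Ocstamp, the partner of Dcstamp in fusion, was the lowest of the tested genes. GM cells held 2.73 and 2.34 CPM on TC and 5.91 and 6.54 CPM on noTC, which became 1.03 and 2.04 CPM and 1.94 and 1.82 CPM in the libraries with LPS. The M libraries held only 1 to 10 counts each, 28 in all, or 0.0374 to 0.513 CPM. With so few counts the ratio of GM to M was 65.0 on TC (exact 95% counting interval 17.6 to 543), 41.3 on noTC (22.8 to 83.5), 19.6 on TC with LPS (6.41 to 97.5) and 6.20 on noTC with LPS (3.36 to 12.5). The last ratio rests on replicate 1 of M-noTC-LPS, which held 10 of the 12 counts of its group: without it the ratio was 18.9 (5.06 to 158), and without replicate 2 it was 3.67 (1.90 to 7.94). Adjusted p-values of edgeR with both replicates were 1.9e-08 on TC, 4.6e-11 on noTC, 6e-06 on TC with LPS and 3.6e-05 on noTC with LPS. Every GM library was above every M library.

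Atp6v0d2 was the most abundant of the 8 genes. GM cells on TC held 1347 and 1365 CPM, or 981 and 964 CPM with LPS, and on noTC 1168 and 1173 CPM, or 891 and 921 CPM with LPS. M cells on TC held 42.9 and 43.4 CPM, or 35.1 and 36.0 CPM with LPS, and on noTC 71.3 and 68.1 CPM, or 65.4 and 59.4 CPM with LPS. The lowest GM library, at 891 CPM, was far above the highest M library, at 71.3 CPM. GM cells were higher 31.4-fold on TC (log2 4.97, SE 0.06, adjusted p = 2.1e-24), 16.8-fold on noTC, 27.3-fold on TC with LPS and 14.5-fold on noTC with LPS.

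The d1 subunit, encoded by Atp6v0d1, is the form found in most cells, so the ratio of d2 to d1 was taken in each library from CPM per kilobase of exon. For GM cells the ratio was 4.79 and 4.58 on TC and 4.46 and 4.49 on noTC, and with LPS 3.50 and 3.43 on TC and 3.27 and 3.24 on noTC. For M cells it was 0.218 and 0.213 on TC and 0.379 and 0.373 on noTC, and with LPS 0.153 and 0.157 on TC and 0.315 and 0.289 on noTC. The d2 transcript was therefore above d1 in all 8 GM libraries and below it in all 8 M libraries. Atp6v0d1 itself was higher in GM-TC than M-TC by 0.53 on the log2 scale (SE 0.05, adjusted p = 4.5e-09), against 4.97 for Atp6v0d2.

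**Figure D2:**
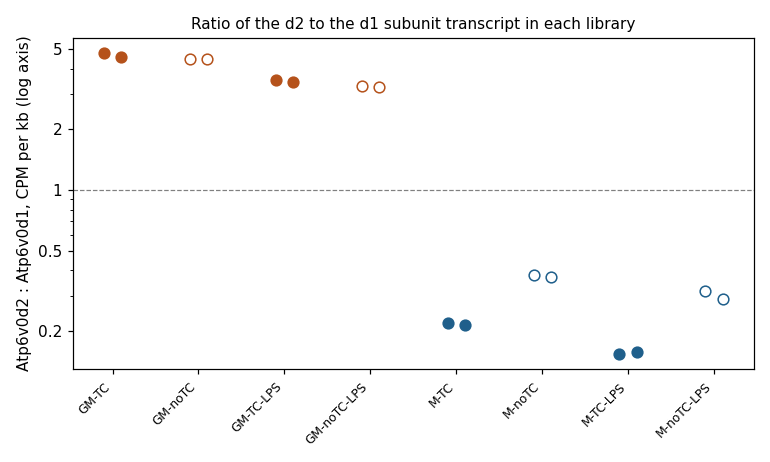
Ratio of Atp6v0d2 to Atp6v0d1, each as TMM-scaled CPM per kilobase of exon, on a log axis, with 1 point per library, filled for TC and open for noTC, and a dashed line at 1. The 8 GM libraries lie between 3.24 and 4.79 and the 8 M libraries between 0.153 and 0.379.

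Acp5, the acid phosphatase, separated GM from M cells by similar factors on both dishes. GM cells on TC held 306 and 324 CPM, or 531 and 553 CPM with LPS, and on noTC 295 and 294 CPM, or 481 and 515 CPM with LPS. M cells on TC held 6.86 and 6.88 CPM, or 21.0 and 19.4 CPM with LPS, and on noTC 7.58 and 6.18 CPM, or 14.7 and 16.96 CPM with LPS. GM cells were higher 45.8-fold on TC (log2 5.52, SE 0.09, adjusted p = 1.2e-22) and 43.3-fold on noTC (log2 5.44, SE 0.08, adjusted p = 9e-23). The factors with LPS were 26.8 and 31.4.

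Ctsk, the collagen protease, stayed between 62.0 and 76.7 CPM in the 8 GM libraries and between 4.92 and 10.6 CPM in the 8 M libraries. The M libraries fell into 2 ranges, 4.92 to 5.98 CPM on TC and 9.50 to 10.6 CPM on noTC. GM cells were higher 13.4-fold on TC (log2 3.74, SE 0.09, adjusted p = 1.9e-19), 6.45-fold on noTC, 13.3-fold on TC with LPS and 7.04-fold on noTC with LPS.

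Oscar was at or near 0. It had 14 counts in the 16 libraries together, at most 2 in any library and 0 in 8 of them, and so was below the floor of 3 counts everywhere and was not tested. No difference was detectable at this depth.

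**Figure D3:**
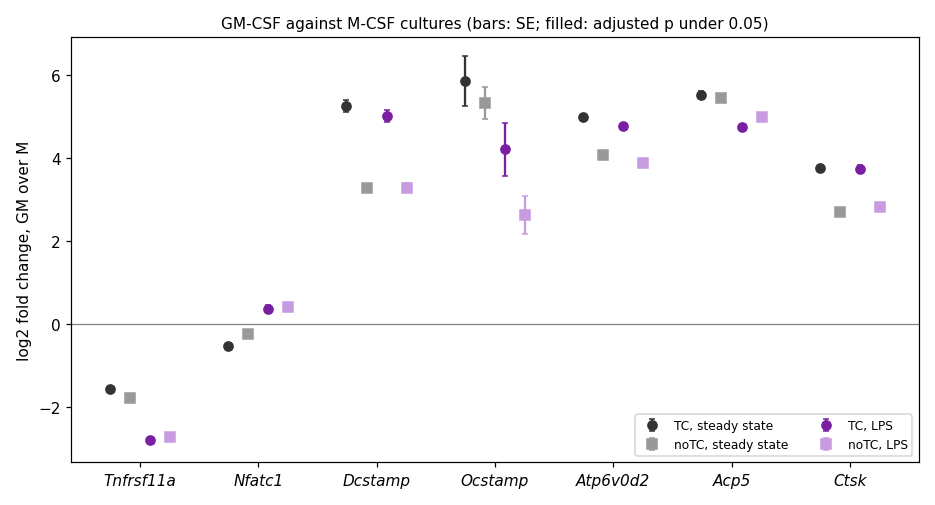
Log2 fold change of GM over M cells with its standard error for the 7 tested genes, on each dish, at steady state and with LPS, and filled symbols passed an adjusted p of 0.05. Dcstamp, Ocstamp, Atp6v0d2, Acp5 and Ctsk lie between 2.61 and 5.85, Tnfrsf11a between -2.82 and -1.59, and Nfatc1 crosses 0 with LPS.

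Markers of other cells moved with the growth factor as well. The sum of 7 dendritic cell markers lay between 927 and 1109 CPM in the GM libraries and between 16.4 and 60.5 CPM in the M libraries, most of it from Itgax, the integrin CD11c, at 916 CPM in GM-TC and 15.5 CPM in M-TC. Of these 7 genes, 6 were at 1 CPM or more in both GM-TC libraries and 1 in both M-TC libraries. Group means were higher in GM-TC than in M-TC for H2-DMb2 (13.2 against 0.382 CPM), Ccr7 (9.41 against 0.0374 CPM), Batf3 (4.49 against 0.365 CPM), Cd209a (3.06 against 0.152 CPM), Zbtb46 (1.75 against 0.368 CPM) and Flt3 (0.161 against 0.0374 CPM). The sum of 8 neutrophil markers was 10.4 to 39.1 CPM in GM and 0.299 to 2.002 CPM in M, and that of 10 genes of osteoblasts and marrow stroma 22.8 to 39.9 CPM and 6.21 to 11.2 CPM. Of the stroma list, Runx2 reached 27.1 CPM, Col1a2 4.55, Dcn 3.72, Sparc 3.52 and Col1a1 3.21 CPM, and Bglap and Alpl were at or under 0.0798 CPM in every library. The part of such cells in the differences was not tested. Reads of other libraries were treated under an estimated share, assumed to be the same in each library treated. With 0.638% of the mean of the other libraries subtracted from each of the 12 libraries outside TC at steady state, Dcstamp was 38.6-fold, Acp5 29.3-fold, Atp6v0d2 31.1-fold and Ctsk 14.0-fold higher in GM-TC-LPS than in M-TC-LPS.

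The second question was how LPS changes these genes. Under TMM scaling Tnfrsf11a and Acp5 rose and Nfatc1 and Atp6v0d2 fell in both cells and on both dishes, and the fusion gene Dcstamp was not called. GM cells had 2 genes higher and 3 lower on each dish, against 67% of all tested genes on TC (32.8% higher, 34.2% lower) and 67.7% on noTC (33.6% and 34%). M cells had 2 higher and 2 lower on each dish, against 74% on TC (37.6% and 36.4%) and 72.3% on noTC (36.4% and 35.9%). So the share called among the 7 genes was near or below that among all genes. The scale matters here: with library size in place of TMM, the median of all tested genes itself shifted by -0.53 and -0.54 in GM cells on TC and noTC, and by -0.83 and -0.73 in M cells.

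Tnfrsf11a rose 3.38-fold upon LPS challenge in M cells on TC (log2 1.76, SE 0.06, adjusted p = 1.4e-17) and 2.26-fold on noTC (log2 1.18, SE 0.06, adjusted p = 1.3e-14). In GM cells it rose 1.44-fold on TC (log2 0.53, SE 0.08, adjusted p = 2.2e-06) and 1.17-fold on noTC (log2 0.22, SE 0.07, adjusted p = 0.01, or 0.057 without replicate 1 of GM-noTC). In the test of GM against M responses 4 of 7 genes were called on TC (41.1% of all genes) and 5 of 7 on noTC (36.2%). The rise of Tnfrsf11a was smaller in GM than in M cells by 1.23 on the log2 scale on TC (adjusted p = 6.9e-10) and by 0.96 on noTC (adjusted p = 2e-08). Scaled by library size only, M cells still rose, by 0.93 and 0.45 on the log2 scale, while the GM values were 0.05 (adjusted p = 0.56) and -0.29 (adjusted p = 0.0012), so the direction in GM-noTC depended on the scaling.

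Acp5 rose in every setting, in GM cells by 0.78 on the log2 scale on TC (SE 0.06, adjusted p = 1.3e-10) and 0.76 on noTC (SE 0.06, adjusted p = 2.3e-10), and in M cells by 1.56 (SE 0.10, adjusted p = 5e-12) and 1.22 (SE 0.10, adjusted p = 2.6e-10). Scaled by library size only, the rises were 0.30, 0.25, 0.73 and 0.50, each with an adjusted p of 0.00068 or lower. The highest M library with LPS, at 21.0 CPM, was below the lowest GM library without it, at 294 CPM.

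Nfatc1 fell 2.86-fold in M-TC (log2 -1.51, SE 0.08, adjusted p = 1.1e-13) and 2.49-fold in M-noTC (log2 -1.32, SE 0.08, adjusted p = 9.7e-13). In GM cells the fall was 1.53-fold on TC (log2 -0.61, SE 0.08, adjusted p = 6.7e-07) and 1.59-fold on noTC (log2 -0.67, SE 0.08, adjusted p = 9.4e-08). The fall was larger in M than in GM cells, by 0.90 on TC (SE 0.11, adjusted p = 1.1e-06) and 0.65 on noTC (SE 0.11, adjusted p = 6.6e-05) on the log2 scale. The libraries with and without LPS did not overlap for Nfatc1 in any of the 4 comparisons, as was so for 80.9% and 84.2% of all genes in GM cells on TC and noTC and 85.8% and 85.7% in M cells.

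Atp6v0d2 fell by 0.48 and 0.37 on the log2 scale in GM cells on TC and noTC (adjusted p = 8.9e-09 and 4.9e-07) and by 0.28 and 0.16 in M cells (adjusted p = 0.00025 and 0.012). Without replicate 2 of M-noTC-LPS the value in M-noTC was -0.09 (adjusted p = 0.23), and without replicate 1 of M-noTC it was -0.11 (adjusted p = 0.14). Ocstamp fell 3.30-fold in GM-noTC (log2 -1.72, SE 0.28, adjusted p = 1.1e-05). On TC the value for GM cells was -0.69 (SE 0.32, adjusted p = 0.06), and without replicate 2 of GM-TC-LPS it was -1.28 (adjusted p = 0.011).

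Dcstamp had log2 fold changes between -0.09 and 0.14 in the 4 LPS comparisons, with adjusted p-values of 0.32 or higher. Scaled by library size only it fell in all 4, in GM cells by 0.57 on TC and 0.52 on noTC and in M cells by 0.68 and 0.73, beside the shifts of all genes given above. Under TMM scaling Ctsk was called in GM-TC alone, at -0.16 (SE 0.07, adjusted p = 0.049), and without replicate 2 of GM-TC the value was -0.10 (adjusted p = 0.26), and without replicate 2 of GM-TC-LPS -0.09 (adjusted p = 0.36). Ctsk fell in all 4 when scaled by library size only, in GM cells by 0.64 on TC (adjusted p = 2.8e-08) and 0.37 on noTC (adjusted p = 4e-05) and in M cells by 0.97 (adjusted p = 8.4e-07) and 0.71 (adjusted p = 9.9e-07).

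**Figure D4:**
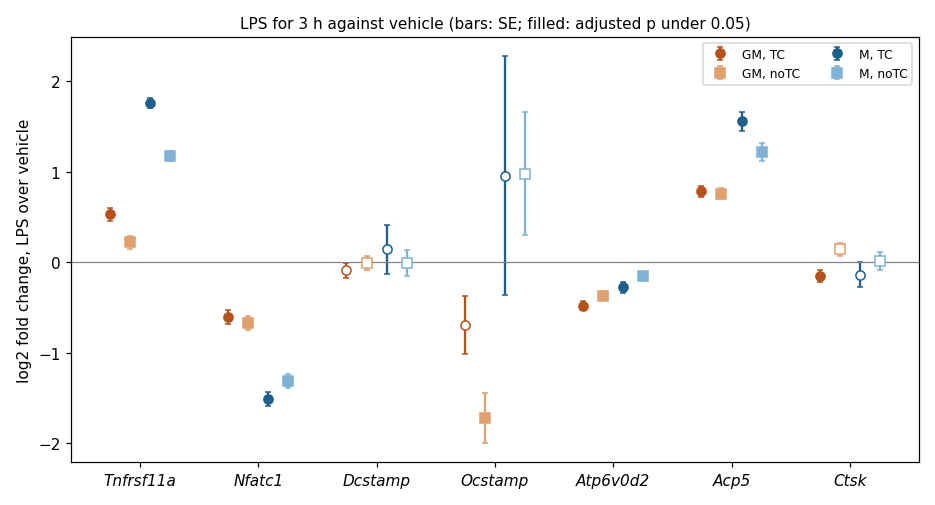
Log2 fold change of LPS over vehicle with its standard error for the 7 tested genes, in GM and M cells on each dish, and filled symbols passed an adjusted p of 0.05. Tnfrsf11a reaches 1.76 and Acp5 1.56 in M-TC, Nfatc1 reaches -1.51 there, and Dcstamp stays between -0.09 and 0.14.

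Ligand and decoy of RANK were read beside the receptor. Tnfsf11, RANK ligand, had 3 counts in GM cells on TC and 1 on noTC, 6 and 7 with LPS, each over 2 libraries, and 0 counts in the 8 M libraries, so it was at or near the floor throughout. Tnfrsf11b, which encodes the soluble decoy receptor osteoprotegerin, went from 0.505 and 0.685 CPM to 12.5 and 11.2 CPM in GM cells on TC, and rose by 4.28 on the log2 scale (SE 0.27, adjusted p = 1.4e-11). On noTC it rose by 4.94 (SE 0.27, adjusted p = 2.1e-12), from 0.489 and 0.333 CPM to 12.1 and 13.3 CPM. M cells had no count of Tnfrsf11b at steady state and at most 0.174 CPM with LPS. Calcr, the calcitonin receptor of mature osteoclasts, was at 0 in GM cells on TC and at 2.07 and 1.81 CPM after LPS.

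The third question was whether the dish changes these genes. At steady state the TC side holds the libraries with heart muscle RNA, and what set these apart cannot be told apart from the dish. In M-noTC comparing with M-TC, Dcstamp, Ctsk, Atp6v0d2 and Tnfrsf11a were higher and none was lower, where 16.1% of all tested genes were called higher, 11.1% lower and 27.2% in either direction. In the same comparison with LPS 3 were higher and 2 lower, with 10.4% and 12.9% of all genes (23.3% in either direction). The libraries did not overlap for 66.9% of all genes at steady state and 58.8% with LPS. In GM cells 1 was higher and 1 lower at steady state (4.69% and 2.85% of all genes, 7.54% together) and 0 of 7 with LPS (2.8%). The 2 calls at steady state became 5 without replicate 1 of GM-TC, 1 without replicate 1 of GM-noTC and 0 without replicate 2 of GM-noTC. In GM cells with LPS 2 genes had an unadjusted p under 0.05 in edgeR, and DESeq2 called 0.

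Dcstamp was 4.27-fold higher on noTC in M cells (log2 2.10, SE 0.18, adjusted p = 1.3e-08) and 3.85-fold higher with LPS (log2 1.94, SE 0.21, adjusted p = 5.6e-07). All 4 M-noTC libraries, at 4.44 to 5.44 CPM, were above all 4 M-TC libraries, at 0.898 to 1.44 CPM. In GM cells the log2 difference was 0.13 (SE 0.08, adjusted p = 0.39) at steady state and 0.21 (SE 0.08, adjusted p = 0.22) with LPS. The dish effect on the log2 scale was smaller in GM than in M cells by 1.97 (SE 0.20, adjusted p = 6.7e-07) at steady state and by 1.74 (SE 0.23, adjusted p = 2e-05) with LPS.

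Ctsk was 1.80-fold higher on noTC in M cells (log2 0.85, SE 0.11, adjusted p = 2.9e-06) and 2.003-fold higher with LPS (log2 1.002, SE 0.13, adjusted p = 5.5e-06). Atp6v0d2 was 1.61-fold higher (log2 0.69, SE 0.05, adjusted p = 3.8e-09) and 1.76-fold higher with LPS (log2 0.81, SE 0.06, adjusted p = 2.3e-09). In GM cells both were slightly lower on noTC at steady state, Atp6v0d2 by 0.21 on the log2 scale (SE 0.05, adjusted p = 0.0061) and Ctsk with a value of -0.21 that was not called (SE 0.07, adjusted p = 0.067). Without replicate 1 of GM-noTC the adjusted p of Atp6v0d2 was 0.077, and without replicate 2 it was 0.061. The difference between GM and M cells in the dish effect was called for Dcstamp, Ctsk and Atp6v0d2 only of the 7 genes, against 11.2% of all genes at steady state and 10.6% with LPS. It was -1.05 for Ctsk and -0.90 for Atp6v0d2 at steady state and -0.91 for each with LPS.

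Tnfrsf11a was 1.34-fold higher on noTC in M cells (log2 0.42, SE 0.06, adjusted p = 7.6e-06). With LPS it was lower on noTC by 0.16 on the log2 scale (SE 0.05, adjusted p = 0.041), a call that was lost without any 1 of the 4 libraries, with adjusted p-values between 0.054 and 0.29. The change of the dish effect with LPS was -0.58 (SE 0.08, adjusted p = 3.7e-05). It was the 1 gene of 7 called for such a change in M cells (10.6% of all genes), and in GM cells edgeR called 0 of 7 (0.783% of all genes), with 3 at an unadjusted p under 0.05 and 0 by DESeq2. Acp5 had a log2 difference of -0.02 between the dishes in M cells at steady state (SE 0.11, adjusted p = 0.94) and was lower on noTC with LPS by 0.35 (SE 0.09, adjusted p = 0.0083). Without replicate 1 of M-noTC-LPS the latter was -0.25 (adjusted p = 0.15), and without replicate 1 of M-TC-LPS -0.29 (adjusted p = 0.10).

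Ocstamp had the largest fold between dishes in GM cells among the 7 genes at steady state. It was 2.47-fold higher on noTC at steady state (log2 1.30, SE 0.27, adjusted p = 0.0027), from 54 and 58 counts to 145 and 177 counts, and took rank 210 of 12514 genes from the highest. Without replicate 2 of GM-noTC the value was 1.23 (adjusted p = 0.066). With LPS the log2 difference was 0.27 (SE 0.33, adjusted p = 0.81). Nfatc1 was not called between dishes in any of the 4 settings, with values from -0.09 to 0.20, and without replicate 1 of GM-TC it was higher in GM-noTC by 0.34 (adjusted p = 0.0018).

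**Figure D5:**
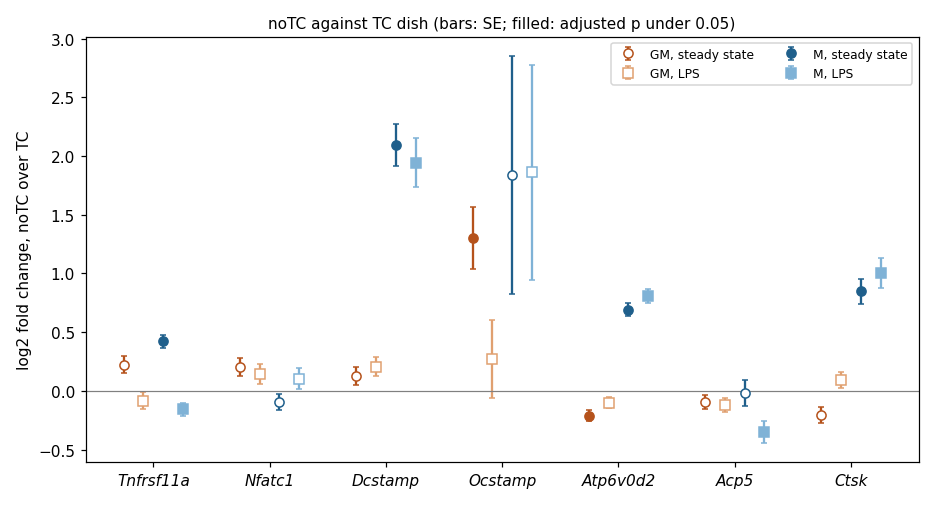
Log2 fold change of noTC over TC with its standard error for the 7 tested genes, in GM and M cells at steady state and with LPS, and filled symbols passed an adjusted p of 0.05. Dcstamp is at 2.10 and 1.94 in M cells and at 0.13 and 0.21 in GM cells, and Ocstamp is called only in GM cells at steady state, at 1.30.

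Other values that moved with the dish in M cells were measured beside these results. The summed dendritic list was 16.4 to 17.4 CPM in M-TC and 48.1 to 48.7 CPM in M-noTC, and 22.9 to 25.6 CPM and 55.9 to 60.5 CPM with LPS. Itgax made up most of it, at 15.5 CPM (SD 1.11, n = 2) in M-TC and 47.1 CPM (SD 0.0885, n = 2) in M-noTC, while Zbtb46, Flt3, Cd209a and Batf3 had means at or under 0.368 CPM in both groups. The part of such cells in the dish effect was not tested. After subtraction of the estimated reads of other libraries, the dish effect in M cells was 4.195-fold for Dcstamp (adjusted p = 2.6e-08), 1.78-fold for Ctsk (adjusted p = 5e-06) and 1.56-fold for Atp6v0d2 (adjusted p = 2.4e-08). With LPS it was 4.42-fold, 2.07-fold and 1.87-fold after the same subtraction. The share subtracted was itself estimated from noTC minus TC levels at steady state, in genes low on TC. The subtraction is therefore not independent of the dish comparison.

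The wider pathway was read in lists of related genes. Of 32 resorption genes, which hold the pump subunits, chloride channel and proteases of the resorbing cell, 19 were higher and 7 lower in GM-TC comparing with M-TC, with a median of 0.28 against 0.02 over all genes, of which 32.6% were higher and 28.9% lower. Car2, carbonic anhydrase 2, was higher by 5.14 on the log2 scale (9.19 and 11.4 against 0.479 and 0.112 CPM, adjusted p = 1.1e-12). Src, the kinase needed for the ruffled border, was higher by 4.21 (45.1 and 43.3 against 2.59 and 2.17 CPM, adjusted p = 2.9e-19). Slc9b2, a sodium proton exchanger, was lower by 3.06 (0.858 and 0.161 against 3.55 and 4.42 CPM, adjusted p = 1.2e-07), and Mmp9, a matrix protease of osteoclasts, by 1.12 (1.31 and 1.17 against 2.39 and 2.96 CPM, adjusted p = 0.01). Scaled by library size only, 15 of the list were higher and 11 lower, with a median of -0.0091. Under that scaling the median of all tested genes was -0.29, so these counts do not give the list's direction relative to all genes.

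Of 32 tested fusion genes, 12 were higher and 14 lower in the same comparison, with a median of 0.00, beside 32.6% and 28.9% of all tested genes. Cdh1, E-cadherin, was higher by 8.10 on the log2 scale (23.2 and 21.9 against 0.0798 and 0.0748 CPM, the latter below the floor, adjusted p = 6e-18) and Mmp14, a membrane protease, by 3.57 (68.9 and 62.1 against 5.50 and 5.54 CPM, adjusted p = 4.9e-18). Adam8, a fusion-associated protease, was lower by 1.46 (105 in both GM libraries against 290 and 291 CPM, adjusted p = 5.8e-16). Scaled by library size only, 11 were higher and 18 lower, where the median of all tested genes was itself -0.29. On noTC, M cells had 12 fusion genes higher and 6 lower comparing with TC, beside 16.1% and 11.1% of all genes, and scaled by library size only 11 were higher and 6 lower.

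Of 24 RANK signalling genes, 9 were higher and 10 lower in GM-TC comparing with M-TC, beside 32.6% and 28.9% of all tested genes. Fosl2 was higher by 1.99 (91.6 and 84.0 against 22.1 and 22.2 CPM, adjusted p = 4.8e-17), and Relb, of the alternative NF-kB pathway, was lower by 1.16 (9.54 and 10.1 against 22.2 and 21.7 CPM, adjusted p = 1.6e-10). Traf6, the adaptor bound by RANK, was higher by 0.36 (SE 0.06, adjusted p = 3.2e-05), and Fos, which RANK ligand induces, had a log2 fold change of 0.25 that was not called (SE 0.11, adjusted p = 0.063). Of 17 genes of ITAM costimulation, 8 were higher and 7 lower. Their adaptors divided, with Tyrobp (DAP12) higher by 0.55 (adjusted p = 2.3e-07) and Fcer1g lower by 0.32 (adjusted p = 0.00016) in GM-TC.

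Among 14 repressors of osteoclast formation 6 were higher and 7 lower in GM-TC comparing with M-TC, beside 32.6% and 28.9% of all tested genes. Irf8 was lower by 0.52 (75.7 and 78.9 against 109 and 113 CPM, adjusted p = 7.4e-08) and Bcl6 by 2.25 (16.9 and 15.1 against 77.1 and 74.4 CPM, adjusted p = 1.1e-15). Socs3, which dampens cytokine signalling, was higher by 3.17 (24.2 and 26.4 against 2.87 and 2.77 CPM, adjusted p = 4.2e-17). Larger differences at low levels were those of Id3, lower by 4.66 (0.0505 and 0.201 against 3.11 and 3.89 CPM, adjusted p = 5.5e-10), and Id1. The latter was higher by 3.48 (4.19 and 4.95 against 0.519 and 0.299 CPM, adjusted p = 4.5e-09). Of 11 further activators, 4 were higher and 5 lower, among them Csf1r, the M-CSF receptor, lower by 1.76 (872 and 812 against 2894 and 2823 CPM, adjusted p = 7.3e-18) and Csf1, M-CSF itself, higher by 3.37 (67.5 and 66.9 against 6.58 and 6.40 CPM, adjusted p = 1.2e-19). The receptor for GM-CSF was higher in GM-TC, by 3.43 for Csf2rb (adjusted p = 8.1e-22) and 1.18 for Csf2ra (adjusted p = 2.2e-12).

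With LPS, 37.6% of all tested genes were higher and 36.4% lower in M-TC, and 32.8% and 34.2% in GM-TC. Of 14 repressors 13 rose and 1 fell in M-TC, and 10 rose and 2 fell in GM-TC. Scaled by library size only, the counts were 8 and 3 in M-TC and 8 and 4 in GM-TC. Tnfaip3, which ends NF-kB signalling, rose by 5.89 on the log2 scale in M-TC (from 36.2 and 35.2 to 2145 and 2102 CPM, adjusted p = 2.9e-25) and by 5.52 in GM-TC (adjusted p = 1.3e-24). Irf8 rose by 1.38 in M-TC (adjusted p = 9e-16) and by 0.61 in GM-TC (adjusted p = 5.9e-09). Of the 2 repressors that fell in GM-TC, Id1 fell by 3.62 (4.19 and 4.95 to 0.465 and 0.279 CPM, adjusted p = 7.1e-09). RANK signalling genes had 16 higher and 3 lower in M-TC, which became 10 and 11 under library size only, and 15 and 6 in GM-TC, which became 10 and 12. Nfkb1 rose by 3.47 in M-TC (from 114 in both libraries to 1276 and 1260 CPM, adjusted p = 2.6e-23), and Tfeb, a lysosomal regulator, fell by 4.03 in M-TC (adjusted p = 1.5e-16) and 3.37 in GM-TC (adjusted p = 6.4e-17). Fos fell by 3.00 in GM-TC (15.4 and 15.3 to 2.33 and 1.53 CPM, adjusted p = 3.4e-13), and in M-TC its log2 fold change was 0.09 (SE 0.12, adjusted p = 0.5). Resorption genes had 24 higher and 3 lower in M-TC and 20 and 4 in GM-TC, which became 5 and 23, and 7 and 17, under library size only. Fusion genes had 16 higher and 8 lower in M-TC and 16 and 6 in GM-TC, which became 7 and 22, and 9 and 19. The balance of higher and lower counts with LPS thus depended on the scaling for the RANK signalling, resorption and fusion lists. Under library size only the median of all tested genes was itself -0.83 in M-TC and -0.53 in GM-TC. Counts under that scaling therefore do not give a list's direction relative to all genes. More repressors were higher than lower under both scalings (medians under library size only of 0.59 in M-TC and 0.41 in GM-TC).

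The order of levels over the 8 groups set the genes apart from each other. For Dcstamp, Atp6v0d2 and Ctsk, M cells on noTC were above M cells on TC with and without LPS. Acp5 was ordered by LPS within each growth factor, and Tnfrsf11a was ordered by LPS and by growth factor, from 15.9 CPM (SD 0.854, n = 2) in GM-TC to 161 CPM (SD 0.436, n = 2) in M-TC-LPS. Across the 16 libraries, which share groups and scaling, the log2 levels of Dcstamp and Ctsk had a Pearson correlation of 0.994, those of Atp6v0d2 and Ctsk 0.994, and those of Nfatc1 and Dcstamp -0.0087. These describe mainly the split between GM and M libraries and carry no test.

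Genes most like each member over the same 16 libraries were looked up among 11045 genes. For Dcstamp they were Itgax (r = 0.995), Ctsk (0.994) and Ripk3 (0.993). For Atp6v0d2 they were Scd1 (0.997), Mgll (0.995) and Mamdc2 (0.995), and for Ctsk Mamdc2 (0.997), Sirpb1c (0.997) and Scd1 (0.997). Acp5 was nearest to Slc39a2 (0.997), Csf2rb2 (0.995) and Bst1 (0.995), and Ocstamp to Asgr2 (0.985), Kcnn3 (0.980) and Cd200r3 (0.973). Nfatc1 was nearest to Zmynd8 (0.992), Map3k1 (0.992) and Tnrc6b (0.990), and Tnfrsf11a to Arhgap11a (0.993), Nck2 (0.991) and Hmgb2 (0.991).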

How the data were processed

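RNA-seq of 16 libraries in 8 groups was used. Per the study's methods, the authors aligned clean reads using HISAT2 and estimated gene levels using RSEM. The file the authors deposited holds expected counts, not normalized. The submitters' processing notes also name fastp 0.18.0, Bowtie2 2.2.8 and StringTie 1.3.1, and the genome build is not given in the sources used here. Between 6.56% and 8.19% of genes in a library had a value that was not whole, and values were rounded. Genes were filtered by group, scaled with TMM factors and fitted over 8 group means with edgeR 4.0.16 in R 4.3.3 (BCV 4.75%), and p-values were BH-adjusted over all 12514 tested genes. The SE of an edgeR log2 fold change was its absolute value divided by the square root of the quasi-likelihood F statistic. The bars in the figures show this value, which is derived from the test and not estimated on its own. Exon lengths came from the GENCODE annotation. Likeness was Pearson's r of log2(CPM + 1).

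Groups came from the sample labels. The 8 genes and the gene lists were chosen with earlier results of these data known. Beside the 8 genes, a fixed set of receptors, adaptors and regulators was named, and up to 2 genes per list and direction with the largest called log2 fold change, at 1 CPM or more without overlap. The values of 1 gene that this rule names are not reported here.

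Alternatives were DESeq2's size factors, library size only, no filter, DESeq2 1.42.0 on all libraries, either tool on just the compared libraries, a replicate block, the study's fold threshold of 2 with an unadjusted p, each replicate left out, and a subtraction of reads of other libraries, whose share was estimated from genes low in TC libraries at steady state and high in others. In simulated counts of the GM-TC and M-TC comparison over 12505 genes, edgeR called 100 of 100 genes changed 2-fold, 100 of 100 changed 4-fold and 9 unchanged genes. The simulation gave all genes and groups the same small spread and changed only well expressed genes. It therefore does not cover genes with few counts, such as Ocstamp, or the larger spread between the GM-TC libraries.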

Additional observations from a re-analysis of the deposited data

Results flagged for a closer look

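Each value here is a difference between 2 log2 fold changes, tested as an interaction in edgeR with BH adjustment over all tested genes. Of these, 41.1% passed for growth factor by LPS on TC, 36.2% on noTC, 10.6% for dish by LPS in M cells, and 11.2% and 10.6% for dish by growth factor at steady state and with LPS. The response to LPS differed between GM and M cells on TC for Tnfrsf11a (-1.23, SE 0.09, adjusted p = 6.9e-10), Nfatc1 (0.90, SE 0.11, adjusted p = 1.1e-06), Acp5 (-0.77, SE 0.12, adjusted p = 1.7e-05) and Atp6v0d2 (-0.20, SE 0.08, adjusted p = 0.041). The Atp6v0d2 value was -0.01 (adjusted p = 0.93) after subtraction of reads of other libraries, and its call was also lost with no filter (adjusted p = 0.1) and in 6 of the fits that leave out 1 library (adjusted p from 0.062 to 0.14).

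On noTC the response differed for Tnfrsf11a (-0.96, SE 0.09, adjusted p = 2e-08), Nfatc1 (0.65, SE 0.11, adjusted p = 6.6e-05), Acp5 (-0.46, SE 0.12, adjusted p = 0.0031), Atp6v0d2 (-0.21, SE 0.07, adjusted p = 0.024) and Ocstamp (-2.70, SE 0.76, adjusted p = 0.0076). The Ocstamp value rests on replicate 1 of M-noTC-LPS, which held 10 of the 28 counts in M cells: without it the value was -1.14 (adjusted p = 0.56). The Atp6v0d2 call on noTC was lost with no filter (adjusted p = 0.079), after subtraction (-0.17, adjusted p = 0.082) and in 5 of the fits that leave out 1 library (adjusted p from 0.076 to 0.2). The Acp5 value was -0.30 (adjusted p = 0.10) without replicate 2 of M-noTC.

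The response of Tnfrsf11a to LPS in M cells was smaller on noTC than on TC (-0.58, SE 0.08, adjusted p = 3.7e-05). The effect of noTC differed between GM and M cells at steady state for Dcstamp (-1.97, SE 0.20, adjusted p = 6.7e-07), Ctsk (-1.055, SE 0.13, adjusted p = 6.4e-06) and Atp6v0d2 (-0.90, SE 0.07, adjusted p = 2.1e-08). With LPS the same genes differed, Dcstamp by -1.74 (SE 0.23, adjusted p = 2e-05), Ctsk by -0.91 (SE 0.15, adjusted p = 0.0002) and Atp6v0d2 by -0.91 (SE 0.08, adjusted p = 7e-08). For Dcstamp and Ctsk the GM libraries lay between 41.3 and 49.4 CPM and between 62.0 and 76.7 CPM on both dishes.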

How the results depend on the processing

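Of 672 values with 1 replicate left out, 636 kept direction and side of the threshold, 27 lost the call and 9 gained one. Of 1123 values under other alternatives, 1047 kept both, 58 lost the call, 12 gained one and 6 changed direction. All 6 were under library size only: after LPS Tnfrsf11a (-0.29) and Ctsk (-0.37) in GM-noTC, Dcstamp in M-TC (-0.68) and Ctsk in M-noTC (-0.71), and the growth factor by LPS difference of Atp6v0d2 (0.15 on TC, 0.0047 on noTC). With the study's fold threshold of 2, the genes called numbered 0 for LPS in GM-TC and for dish by LPS in M, 2 for the dish in M with LPS, and 1 each for LPS in GM-noTC, the dish in GM and in M at steady state, growth factor by LPS on TC and on noTC, dish by LPS in GM, and dish by growth factor with LPS. On the compared libraries alone, edgeR and DESeq2 each called 1 for the dish in GM, and DESeq2 3 for the dish in M with LPS. With a replicate left out the counts ranged from 0 to 5 for the dish in GM (5 without replicate 1 of GM-TC, 0 without replicate 2 of GM-noTC), 3 to 5 for the dish in M with LPS, 3 to 5 for growth factor by LPS on noTC and 0 to 1 for dish by LPS in GM. Same-numbered replicates did not deviate together (r from -0.069 to 0.021). The replicate block changed 1 call, Ctsk with LPS in GM-TC (-0.16, adjusted p = 0.055). Ocstamp in M cells was limited by depth, with 28 counts in 8 libraries. The causes were not tested.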

Other observations

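Markers of mature osteoclasts outside the 8 genes were read in all groups. The sum of Calcr, Itgb3, Mmp9, Siglec15, Tm4sf19, Slc9b2 and Car2 was 38.7 to 40.04 CPM in GM-TC and 75.6 to 78.2 CPM in GM-TC-LPS, against 25.5 to 26.2 CPM in M-TC and 16.9 to 20.03 CPM in M-TC-LPS. On noTC it was 41.1 to 42.6 CPM in GM cells and 31.9 to 34.6 CPM in M cells. With LPS the noTC sums were 69.8 to 72.3 CPM and 22.6 to 26.7 CPM. In GM-TC against M-TC the list was mixed, with Car2 higher, Mmp9 and Slc9b2 lower, and Itgb3 not called (0.15, adjusted p = 0.19). Itgb3, the integrin beta 3 chain, rose by 0.44 with LPS in GM-TC (adjusted p = 0.00038), with 0.06 in GM-noTC (adjusted p = 0.61), and fell by 1.20 in M-TC (adjusted p = 3.8e-09), from 16.4 in both libraries to 7.43 and 6.80 CPM. Mmp9 was higher by 1.33 in M-noTC than in M-TC (6.03 and 7.36 against 2.39 and 2.96 CPM, adjusted p = 0.00044), and Fos by 1.20 (28.7 and 30.6 against 12.4 and 13.4 CPM, adjusted p = 1.3e-08).

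The other marker lists gave these sums: macrophage genes had 37750 to 46561 CPM in GM and 19984 to 28103 CPM in M, mast cell or basophil genes 18.2 to 32.8 and 3.25 to 8.22 CPM, erythroid or megakaryocyte genes 26.7 to 45.9 and 3.83 to 9.84 CPM, and T, B and NK cell genes at most 1.14 and 0.174 CPM.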
